A study of Mus musculus with 2 samples.

Results

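Glypicans and syndecans are the proteoglycans that carry most of the heparan sulphate on cell surfaces, and their genes were followed here in the fetal mouse liver. The set comprised 10 genes, the 6 glypicans Gpc1 to Gpc6 and the 4 syndecans Sdc1 to Sdc4, of 18193 genes that a probe set of the array named alone. Every probe set whose annotation gave a member as its sole gene was taken, which gave 24 probe sets, 11 for glypicans and 13 for syndecans. A further probe set annotated to both Gpc2 and Gal3st4 was left out, and it read 15.8 in the mesothelial sample and 10 in the liver sample.

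A glypican is a globular core protein held to the outer membrane leaflet by a glycosylphosphatidylinositol (GPI) anchor, whereas a syndecan crosses the membrane and ends in a short cytoplasmic tail that binds adaptor proteins. The heparan sulphate chains of both bind growth factors, morphogens such as Wnt and Hedgehog proteins, and matrix proteins, and present them to signalling receptors. In the liver, glypican-3 is known as an oncofetal protein of hepatoblasts, and syndecan-1 as a hepatocyte receptor for remnant lipoproteins.

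RNA came from livers of wild type C57Bl6 mouse embryos at E12.5, and 1 Affymetrix array was hybridised for each of the 2 groups. The mesothelial group was sorted by FACS, after trypsin-EDTA digestion of the liver, as the cells that bound antibodies against podoplanin (Pdpn), and the mesothelium is the epithelial sheet that covers the organ. The liver group is labelled as liver cells of the same strain, genotype and age, with no word on whether Pdpn-positive cells had been taken out. For each group 20 ng of total RNA was amplified before hybridisation. With 1 array per group no difference has a replicate check and no test was possible, so every value below describes these arrays. The sources used here do not say whether embryos were pooled, and a free-text field that places both samples at a far earlier embryonic stage was not followed.

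Pdpn, the sorted protein's gene, read 3877 in the mesothelial sample against 100 in the liver sample, and Wt1, a transcription factor of mesothelium, read 1994 against 102.0, whereas albumin (Alb) read 15683 against 12831.8. Of 8 mesothelial markers, 7 were above the intensity floor, which is the median of all probe sets on an array, 65.8 on the mesothelial and 42.3 on the liver array, applied to the higher reading. A reading at or below the highest of 27 probe sets for bacterial RNA, 16.2 and 10.5, is called control level. A difference is the mesothelial log2 intensity less the liver log2 intensity, and their median over all genes was 0.66, so the mesothelial array was brighter for the typical gene. The text therefore also gives differences relative to that median.

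Upstream sequence was available for 7 of the 10 genes in RefSeq for GRCm38.p6, and not for Gpc1, Gpc6 and Sdc2. The 250 bases before the annotated start are printed for the X-linked neighbours Gpc3 and Gpc4, for Gpc5, which was near control level on both arrays, and for Sdc1 and Sdc4, the syndecans of epithelia and of focal adhesions. They lie at chrX:52613975-52614224 (minus strand), chrX:52164924-52165173 (minus strand), chr14:115091965-115092214 (plus strand), chr12:8771146-8771395 (plus strand) and chr2:164443189-164443438 (minus strand) of GRCm38.p6. Capitals mark GC boxes, GGGCGG on either strand, and TATAA on either strand.
Gpc3: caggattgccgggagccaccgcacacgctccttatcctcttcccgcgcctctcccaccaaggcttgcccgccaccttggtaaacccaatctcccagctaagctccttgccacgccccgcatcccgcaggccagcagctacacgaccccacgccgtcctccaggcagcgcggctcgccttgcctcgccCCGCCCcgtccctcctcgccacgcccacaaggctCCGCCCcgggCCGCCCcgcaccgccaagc
Gpc4: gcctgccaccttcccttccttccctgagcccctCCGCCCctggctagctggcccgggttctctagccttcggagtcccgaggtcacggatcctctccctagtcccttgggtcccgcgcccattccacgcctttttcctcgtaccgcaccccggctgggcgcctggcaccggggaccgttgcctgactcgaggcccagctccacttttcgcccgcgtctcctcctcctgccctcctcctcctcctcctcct
Gpc5: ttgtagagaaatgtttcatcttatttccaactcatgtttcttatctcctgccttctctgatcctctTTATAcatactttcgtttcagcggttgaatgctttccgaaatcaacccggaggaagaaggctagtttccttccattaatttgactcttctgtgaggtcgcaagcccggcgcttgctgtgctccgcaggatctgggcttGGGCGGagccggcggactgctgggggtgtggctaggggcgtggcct
Sdc1: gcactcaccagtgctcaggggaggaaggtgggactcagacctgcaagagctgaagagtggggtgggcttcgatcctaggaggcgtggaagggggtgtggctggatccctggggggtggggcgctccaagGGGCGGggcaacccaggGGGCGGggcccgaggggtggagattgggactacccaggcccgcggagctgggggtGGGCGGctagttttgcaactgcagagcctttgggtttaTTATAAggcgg
Sdc4: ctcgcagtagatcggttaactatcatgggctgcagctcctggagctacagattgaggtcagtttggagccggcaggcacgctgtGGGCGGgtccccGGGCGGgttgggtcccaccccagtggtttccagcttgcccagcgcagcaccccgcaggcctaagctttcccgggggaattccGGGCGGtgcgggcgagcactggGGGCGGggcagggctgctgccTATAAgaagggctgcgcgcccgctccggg
A GC box, the letters bound by Sp1-type factors, was present in all 7 windows, 4 times in Sdc4, 3 times each in Gpc2, Gpc3, Sdc1 and Sdc3, and 1 time each in Gpc4 and Gpc5. Of 32851 windows of the same length before annotated starts, 32.7% held a GC box. TATAA was found in Gpc5, Sdc1 and Sdc4, and 22.8% of all windows held it. In Sdc1 its 2 matches, 1 per strand, overlapped each other. The letters GCGNGGGNG, a form of the site shared by WT1 and EGR factors, were found on either strand only in Sdc3 among the 7, with 2 matches of which 1 overlapped a GC box, and 10.5% of all windows held them. GC content was 51.2% in the Gpc5 window and 66.0% to 76.4% in the other 6, against a median of 52.4% over all windows. These matches describe letters in the windows, and binding was not measured.

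Nearly the whole family read brighter in the sorted mesothelial cells. Gpc5 lay under the floor, and the other 9 member genes were above it on both arrays. Of these 9, 8 reached 2-fold toward the mesothelial side and 0 toward the liver side, while 45.8% of all 11905 genes above the floor passed in the mesothelial direction and 3.86% in the liver direction. The median difference over the 10 members was 1.71, against 0.66 over all genes, or 1.05 relative to them. It was 1.81 over the glypicans and 1.71 over the syndecans. After the array medians were made equal, 5 of the 9 members were at least 2-fold higher, against 23.9% of genes. A gene's value was that of its brightest probe set. As these are mixed cell samples, fewer cells of a type and less RNA per cell cannot be told apart.

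Most single probe sets went the same way, and the exceptions were mostly dim. Of the 24 probe sets, 21 read higher in the mesothelial sample and 3 in the liver sample. Of the 19 above the floor, 14 reached 2-fold toward the mesothelial side and 1 toward the liver side, against 41.8% and 4.06% of all single-gene probe sets above the floor. Their median difference was 1.84, against 0.81 over all such probe sets. The other 5 lay under the floor, 1 each for Gpc5, Sdc1, Sdc2, Sdc3 and Sdc4. Probe sets of the same gene, on these arrays, differed with a pooled SD of 0.70 over 5220 genes, which holds no variation between embryos, sorts or amplifications.

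**Figure D1:**
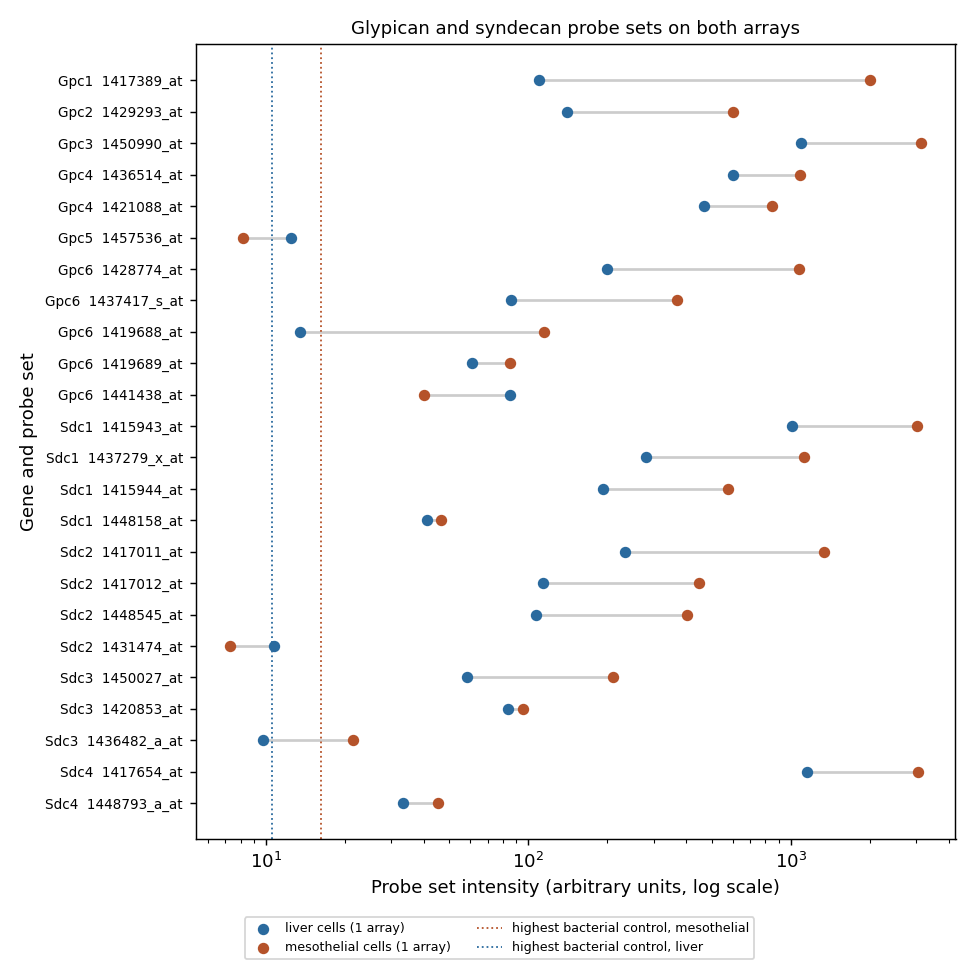
Intensity of each of the 24 probe sets (log axis, arbitrary units) on the mesothelial array and the liver array, 1 array each, with lines joining the readings of a probe set and dotted lines at the highest bacterial control of each array, 16.2 and 10.5. All but 3 probe sets, of Gpc5, Gpc6 and Sdc2, read higher in the mesothelial sample, and the widest gap among the bright ones is that of Gpc1.

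Gpc1, a glypican known as a co-receptor for fibroblast growth factors, had the largest difference of the family. Its only probe set, 1417389_at, read 2008 in the mesothelial sample and 109.3 in the liver sample, 18.4-fold higher, a log2 difference of 4.20, which is 3.54 above the median of all genes. It stood at percentile 99.3 of the genes above the floor, 87 of which had a larger difference. Of 5 other scalings, 3 made the arrays equal in their medians, in the medians of 11 reference genes or in those of hybridisation controls, the next removed the median difference of the reference genes, and the last was quantile normalization. Under these the difference of Gpc1 was 3.08 to 3.77, over 2-fold in each. No second probe set was available to compare with it. The genes whose differences lay nearest over the 2 arrays were Pkia at 4.20, Zfp503 at 4.20 and Kcna5 at 4.21, each within 0.0070 of Gpc1.

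Gpc6, a glypican that stimulates Hedgehog signalling in growing bone, was also higher in the mesothelial sample by its brighter probe sets, but its 5 probe sets differed from each other. The brightest, 1428774_at, read 1072 in the mesothelial sample and 199.3 in the liver sample, 5.38-fold higher with a difference of 2.43. Probe set 1437417_s_at read 369.4 against 85.8, a difference of 2.11, and 1419688_at read 114.6 against 13.5, a difference of 3.09. These 3 probe sets thus put the mesothelial reading at least 4-fold above the liver reading. The remaining probe sets did not follow them: 1419689_at read 85.2 against 60.8, and 1441438_at read 40.1 against 85.4, which is 2.13-fold higher in the liver sample and was the only member probe set above the floor in that direction. The SD over the 5 was 1.69, above the pooled 0.70, and their median difference was 2.11. The parts of the transcript that each probe set covers were not analysed here.

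Gpc5, which forms a subfamily with Gpc3 and lies next to Gpc6 on chromosome 14 in the RefSeq gene order, read under control level in the sorted cells. Its only probe set, 1457536_at, read 8.2 in the mesothelial sample, under the control level of 16.2, and 12.4 in the liver sample, just above the control level of 10.5. No fold is given for it. The statement rests on 1 probe set at the bottom of the scale of both arrays.

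Gpc2, a glypican best known from developing neurons, read 600.2 in the mesothelial sample and 140.4 in the liver sample by its only probe set, 1429293_at. This was 4.27-fold higher, a difference of 2.10, which is 1.43 above the median of all genes. Of 5 measured neural markers only Elavl4 was above the floor, and it differed by -0.54. Under the floor, Nefl read 53.1 against 18.9 and Stmn2 50.7 against 23.3, 2.81-fold and 2.18-fold higher in the mesothelial sample, so the neural markers were dim and mixed in direction, and their part in the Gpc2 reading was not tested. The difference of Gpc2 was 0.98 to 1.66 over the other scalings.

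Gpc3, the oncofetal glypican of the liver, was far above the floor in both samples. Its only probe set, 1450990_at, read 3133 in the mesothelial sample and 1093 in the liver sample, 2.87-fold higher with a difference of 1.52. Relative to all genes the difference was 0.86, a factor of 1.81, and it was 0.40 to 1.09 over the other scalings, so that the direction was the same under each of them but the size of 2-fold was not. Markers of hepatoblasts, the cells in which Gpc3 is best known, had a median of 0.67, 0.00 above that of all genes, and their summed intensity was 68617.6 on the mesothelial and 45148.5 on the liver array. The sums rest mostly on Alb and other very bright markers, and whether such bright readings compress differences was not tested. All 8 hepatoblast markers were above the floor. As deposited 2 of them, Hnf4a at 3.04-fold and Dlk1 at 2.55-fold, reached 2-fold toward the mesothelial side, against 45.8% of all genes. With array medians made equal 0 did, against 23.9%. The part of hepatoblast RNA in the Gpc3 reading of the sorted cells was not tested.

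Gpc4, which lies next to Gpc3 on the X chromosome and is known as a glypican of neural precursors and astrocytes, differed least of the members above the floor. Its brighter probe set, 1436514_at, read 1079.8 in the mesothelial sample and 602.1 in the liver sample, and 1421088_at read 845.4 against 465.2. The probe sets gave 0.84 and 0.86, with an SD of 0.014 between them. At 1.79-fold the gene was under the 2-fold threshold and only 0.18 above the median of all genes, at percentile 47.3 of the genes above the floor. Its direction depended on the scaling, from -0.27 with reference gene medians made equal to 0.41 with the median reference gene difference removed, and -0.0064 by quantile normalization. Akirin2, Exosc1 and Pfdn5 had the nearest differences over the 2 arrays, each 0.84, and 6275 genes above the floor had a larger difference.

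Of the neighbouring gene pairs, Gpc3 differed by 1.52 and Gpc4 by 0.84, a gap of less than the pooled SD between probe sets, while Gpc6 was above the floor and Gpc5 near control level. The order of the family by difference was Gpc1, Sdc2, Gpc6, Gpc2, Sdc3, Sdc1, Gpc3, Sdc4 and Gpc4. Only the step from Gpc1 to Sdc2, 1.67, was larger than the pooled SD of 0.70. The steps between the other neighbours were 0.064 to 0.56, smaller than that SD, so the order of adjacent genes is not resolved. No step, that from Gpc1 included, has a replicate check.

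**Figure D2:**
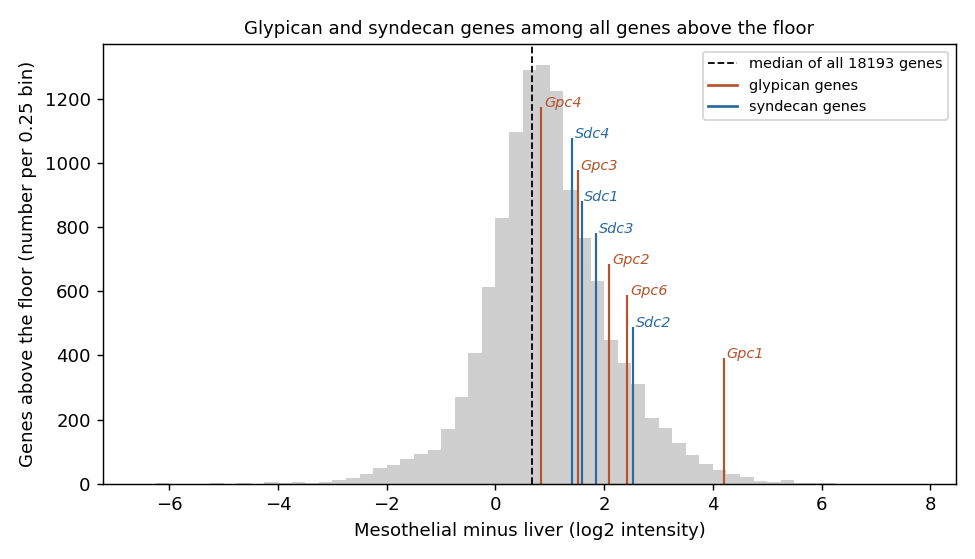
Number of genes above the floor (vertical axis) by log2 difference, mesothelial minus liver (horizontal axis, bins of 0.25), with vertical lines at the 5 glypican and 4 syndecan genes above the floor (line heights only keep the names apart) and a dashed line at the median over all 18193 genes, 0.66. All 9 lie to the right of the dashed line, Gpc4 next to it and Gpc1 in the far tail.

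Among the syndecans, Sdc2, the syndecan typical of mesenchymal cells, had the largest difference. Probe set 1417011_at read 1343 in the mesothelial sample and 233.0 in the liver sample, 5.76-fold higher with a difference of 2.53. Probe sets 1417012_at and 1448545_at read 445.7 against 113.4 and 402.7 against 107.3, differences of 1.97 and 1.91. The SD over these 3 was 0.34, under the pooled value, so the probe sets of Sdc2 above the floor gave similar differences. The remaining probe set, 1431474_at, read 7.3 and 10.7, at or close to control level on both arrays. Sdc2 kept a difference of 1.41 to 2.09 over the other scalings.

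Sdc1, the main syndecan of epithelia and of plasma cells, was measured by 3 probe sets above the floor. Probe set 1415943_at read 3035 in the mesothelial sample and 1013 in the liver sample, 1415944_at read 576.0 against 192.1, and 1437279_x_at, of a kind that can cross-hybridise, read 1123 against 280.4. Their differences were 1.58, 1.58 and 2.00, with an SD of 0.24, so that each put Sdc1 about 3-fold to 4-fold higher in the mesothelial sample. The remaining probe set, 1448158_at, read 46.6 against 40.9 and lay under the floor. The difference relative to all genes was 0.92, and it was 0.47 to 1.15 over the other scalings. Markers of B cells and plasma cells were dim. Of 6 measured, 2 passed the floor and 0 reached 2-fold in either direction, against 45.8% and 3.86% of all genes. The summed intensity of the 6 was 290.7 in the mesothelial sample and 224.7 in the liver sample. The part of these cells in the Sdc1 reading was not tested.

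Sdc4, a syndecan of focal adhesions, read 3051 in the mesothelial sample and 1154 in the liver sample by probe set 1417654_at, 2.64-fold higher with a difference of 1.40. Its other probe set, 1448793_a_at, read 45.4 against 33.2, under the floor, so the value rests on 1 probe set, and the median over both was 0.93. The difference was 0.29 to 0.97 over the other scalings, positive but under 2-fold in each.

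Sdc3, the syndecan of the nervous system and of muscle precursors, was measured by 3 probe sets that disagreed. Probe set 1450027_at read 210.1 in the mesothelial sample and 58.5 in the liver sample, 3.59-fold higher with a difference of 1.84. Probe set 1420853_at read 95.6 against 83.9, a difference of 0.19, and 1436482_a_at read 21.4 against 9.7, which is at least 2.04-fold higher because the liver reading was at control level. The SD between the 2 above the floor was 1.17. With the median over its probe sets Sdc3 differed by 1.14. Muscle markers were also mostly brighter in the sorted cells, with summed intensities of 2824.5 against 858.6. Of 6, 5 reached 2-fold as deposited, against 45.8% of all genes, and 4 with array medians made equal, against 23.9%. The part of muscle cells in the Sdc3 reading was not tested.

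**Figure D3:**
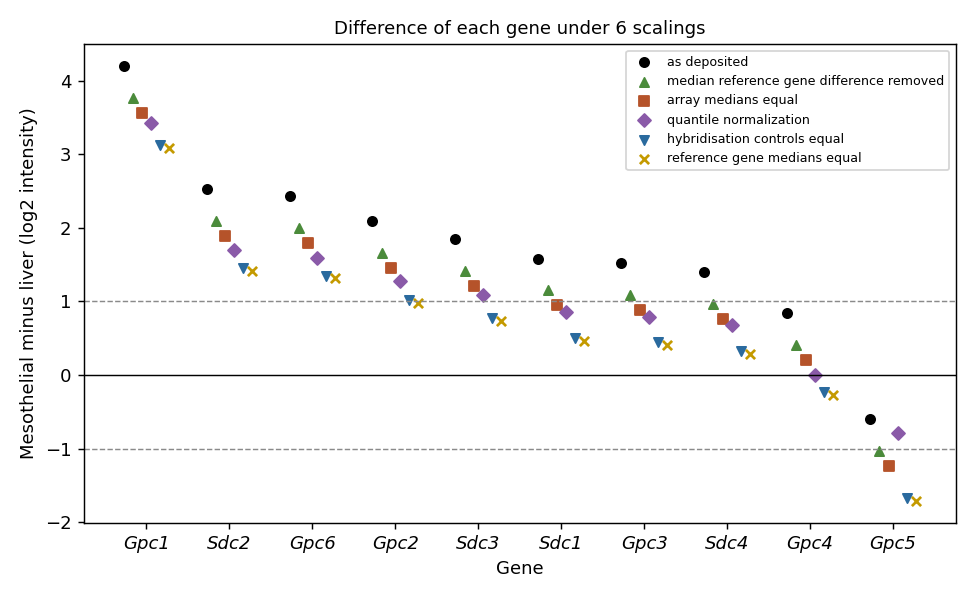
Log2 difference of each member gene, mesothelial minus liver (vertical axis), as deposited and under the 5 other scalings of the arrays, with dashed lines at 2-fold in each direction. Gpc1, Sdc2 and Gpc6 stay above 2-fold under all 6, and Gpc4 falls on both sides of 0. Gpc5, near control level and under the floor, is below 0, and beyond 2-fold except as deposited and by quantile normalization.

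How many members reached 2-fold depended on the scaling. The median of the family relative to all genes was 1.05 as deposited and 0.90 by quantile normalization. The other scalings subtract a constant from every difference, so under them it stayed at 1.05 by construction. Gpc1, Sdc2 and Gpc6 reached 2-fold toward the mesothelial side under all 5 other scalings. The number of members that did so was 7 with the median reference gene difference removed, 5 with array medians made equal and 5 by quantile normalization, and it was 4 with hybridisation controls made equal and 3 with reference gene medians made equal. The share of all genes that passed under the same settings was 29.3%, 23.9%, 20.7%, 14.6% and 14.1%. The shares in the liver direction were 6.72%, 9.25%, 11.1%, 17.9% and 19.1%. At 4-fold, 4 members passed in the mesothelial direction as deposited, against 16.1% of genes, and 0 in the liver direction, against 1.08%. Under none of the 5 scalings was a member above the floor 2-fold or more toward the liver side.

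Other cell types differed between the samples beside the family. Mesothelial markers summed to 14229.5 in the mesothelial sample and 523.7 in the liver sample, all 7 that passed the floor reached 2-fold, and Msln was at control level in the liver sample. Markers of stellate and submesothelial mesenchyme summed to 5595 against 1093, with 7 of 7 at least 2-fold higher, and those of megakaryocytes to 23276 against 6933, with 6 of 6. Macrophage markers summed to 4089 against 1071, with 4 of 5. These counts stand against 45.8% of all genes. With array medians made equal, 5 mesenchyme, 3 megakaryocyte and 2 macrophage markers were at least 2-fold higher, against 23.9% of all genes. Endothelial markers lay near the typical gene. Their sums were 2727 and 1413.5, with 3 of 8 at least 2-fold higher against 45.8% of all genes, and their median difference was 0.45, which is -0.22 relative to all genes. With array medians made equal, 1 endothelial marker was at least 2-fold higher and 1 at least 2-fold lower in the mesothelial sample. Erythroid markers went the other way, 4273 against 17704.8, with 4 of 5 2-fold or more toward the liver side, against 3.86% of all genes. None of the markers of hepatoblasts, erythroid cells, megakaryocytes, endothelium, mesenchyme, macrophages or muscle was at control level on either array. The part of each cell type in the differences of the 8 members was not tested.

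The counts in the 7 lists of related genes stand against the shares of all genes that reached 2-fold toward the mesothelial side, 45.8% as deposited and 23.9% with array medians made equal. The other heparan sulphate proteoglycans and related carriers also read mostly brighter in the mesothelial sample. Of 8 genes that passed the floor, 6 reached 2-fold toward the mesothelial side, and 5 with array medians made equal, with a median difference of 1.89 over 10 genes against 1.71 for glypicans and syndecans. Col18a1, a basement membrane collagen with heparan sulphate chains, read 2048 against 222.1, 9.22-fold higher, and its 2 probe sets had an SD of 0.31. Spock2, a secreted proteoglycan of the testican family, read 73.4 against 10.7, close to control level in the liver sample, with a difference of 2.78 and a median of 1.22 over 2 probe sets. The co-receptor gene Nrp1 read 2690.0 against 542.9, 4.95-fold higher, and its 4 probe sets had an SD of 1.0. Cd44, a hyaluronan receptor that can carry heparan sulphate in some splice forms, had the smallest difference of those above the floor, 0.80, and its direction did not hold under every scaling, with a median over probe sets of 0.15.

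Genes for making the chain backbone were mostly brighter in the mesothelial sample as deposited, and fewer were after centring. Of 9 that passed the floor, 7 reached 2-fold as deposited, above the 45.8% of all genes, and 2 with array medians made equal, near the 23.9% of all genes. Their list had a median of 1.44, which is 0.78 above that of all genes. Extl1, an exostosin-like glycosyltransferase, read 69.9 against 21.1, 3.31-fold higher. B4galt7, which adds the first galactose of the linker, read 1519.9 against 475.5, 3.20-fold higher, and its 2 probe sets had an SD of 0.071. Extl2 read 1202 against 427.3, 2.81-fold higher. B3gat3, which completes the linker, read 175.9 against 177.2 and differed by -0.011.

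Genes for sulphation and epimerisation of the chain, including those for supply of the sulphate donor, lay near the typical gene. Their median difference was 0.24 above that of all genes. Of 12 that passed the floor, 6 reached 2-fold toward the mesothelial side and 1 toward the liver side. With array medians made equal 3 and 1 did, so the mesothelial counts were near the shares of all genes, 45.8% and 23.9%. The median difference of 0.90 over 18 genes was negative under some of the other scalings. Hs3st3a1, a 3-O-sulphotransferase, read 180.6 in the mesothelial sample and 13.8 in the liver sample, 13.1-fold higher, by 1 probe set. Hs6st2, a 6-O-sulphotransferase, read 360.8 against 94.4, but its 4 probe sets had a median difference of -0.63, and the 3 above the floor had an SD of 1.78. Ndst3, an N-deacetylase and N-sulphotransferase, read 17.4 in the mesothelial sample, close to control level, and 79.7 in the liver sample. This was 4.58-fold higher in the liver sample, by the 1 of its 2 probe sets above the floor. The median difference over both probe sets was -0.89. By its brightest probe set Ndst3 was the only gene of the 86 in these lists at least 2-fold higher in the liver sample.

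Among genes that edit or cut the chains, or release the core proteins, Sulf1 and Hpse differed most by their brightest probe sets, toward the mesothelial sample. Of 7 that passed the floor, 5 reached 2-fold toward the mesothelial side, and 2 with array medians made equal, which is near the 23.9% of all genes. The median of the list was 1.31. Sulf1, an extracellular sulphatase that removes 6-O-sulphate, read 5865 against 671.7, 8.73-fold higher, and the 2 of its 3 probe sets above the floor had an SD of 0.15. Its relative Sulf2 read 4349 against 1507, 2.89-fold higher by the brightest of 3 probe sets, whose SD was 1.63. The median over the probe sets of Sulf2 was 3.35, larger than that of Sulf1, 3.13, and of Hpse, 2.85. Hpse, the heparanase that cleaves the chains, read 393.9 against 54.5, 7.23-fold higher. Adam10, a membrane protease that sheds surface proteins, differed by 0.24, which was negative under all 5 other scalings, and by -0.88 as the median over its 4 probe sets. Notum, an enzyme able to release GPI-anchored glypicans and known to inactivate Wnt proteins, was under the floor at 20.0 against 7.4.

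Among genes of the proteins that syndecan tails engage, differences above the floor ran from 0.14 for Sdcbp to 2.47 for Actn1. Actn1, Prkca and Cask are named because their differences were the largest of the list. Of 8 that passed the floor, 5 reached 2-fold toward the mesothelial side, and 3 with array medians made equal, with a median of 1.44. The actin cross-linker gene Actn1 read 1992.5 against 359.1, 5.55-fold higher. Prkca, a kinase bound by syndecan-4 at focal adhesions, read 734.6 against 175.8, 4.18-fold higher, and the scaffold gene Cask 410.5 against 108.4, 3.79-fold higher, with SDs of 0.46 between 3 and 0.81 between 4 probe sets. Sdcbp, which encodes syntenin, the adaptor that binds the ends of all syndecans, read 2849 against 2577, a difference of 0.14 that was negative under all 5 other scalings.

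Genes of GPI anchor assembly, on which glypicans but not syndecans depend, also lay nearer to the typical gene than most of the lists. Of 18 that passed the floor, 10 reached 2-fold toward the mesothelial side, and 5 with array medians made equal, and their list had a median of 1.10, which is 0.44 above that of all genes and became -0.010 with reference gene medians made equal. Pigh, Pigs and Pgap1 were 6.67-fold, 3.95-fold and 3.54-fold higher by their brightest probe sets, and the medians over their 2 probe sets each were 1.40, 0.94 and 1.43. Piga, which acts in the first step, read 355.3 against 346.6.

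Receptors and ligands with which glypicans act had the highest median of the 7 lists, 2.01, which is 1.35 above that of all genes. All 9 were above the floor and 2-fold or more toward the mesothelial side as deposited, and 6 were with array medians made equal. Lrp2, an endocytic receptor, read 241.6 against 9.8, at least 23.0-fold higher because the liver reading was at control level, with an SD of 0.046 over the 2 of its 3 probe sets above the floor. Lrp1, a receptor that takes up Gpc3 with Hedgehog, read 1800.2 against 142.4, 12.6-fold higher, and its 2 probe sets had an SD of 0.75. Hhip, which binds Hedgehog ligands at the surface, read 163.0 against 23.8, 6.85-fold higher, with a median difference of 1.84 over its 4 probe sets. Igf1r, the receptor for insulin-like growth factors, had the smallest difference, 1.05, and it was negative under some of the other scalings. Over all 7 lists, 48 of 71 genes above the floor reached 2-fold toward the mesothelial side and 1 toward the liver side, against 45.8% and 3.86% of all genes. The mesothelial share was 67.6% as deposited, 36.6% with array medians made equal against 23.9% of all genes, and 16.9% with hybridisation controls or reference gene medians made equal, close to the 14.6% and 14.1% of all genes under those scalings.

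**Figure D4:**
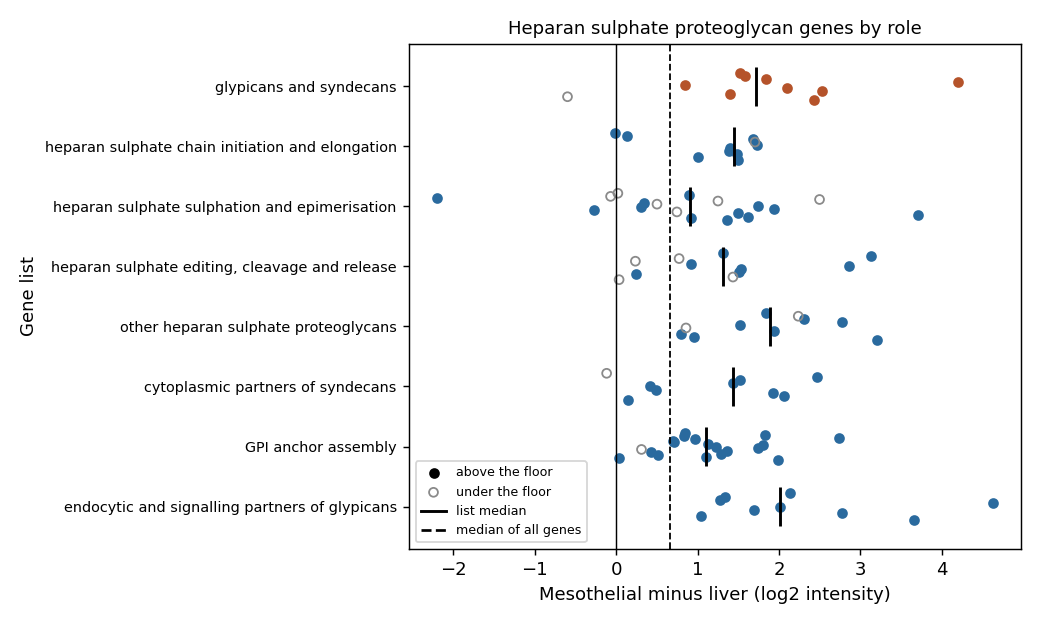
Log2 difference, mesothelial minus liver, of each gene (points, filled where above the floor) in the glypican and syndecan family and in 7 lists of related genes, with black bars at list medians, a dashed line at the median of all genes, 0.66, and a solid line at 0. The partners of glypicans lie furthest right with a median of 2.01, and sulphation and epimerisation genes lie mostly right of 0 with a median of 0.90.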

How the data were processed

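The authors deposited probe set intensities, 45101 per array, which are linear judging by their range. RMA and Partek are named in the submitters' processing notes, with no version, role or order, and how the arrays were scaled is not given in the sources used. Log2 was taken of the values as deposited. Gene names are those of the platform annotation, which gives 1 symbol for 34945 probe sets. Each gene was read from its brightest probe set by mean log2 value. Genes were counted where the higher reading was at or above the median of its array and the log2 difference was 1 or more. No test was run, and precision is limited by the number of arrays. Alternatives were other scalings, the median over probe sets, no _x_at or _s_at probe sets, other floors, a 4-fold threshold, low values at control level and an offset of 16. Amplification from 20 ng can alter transcript ratios.

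The members and gene lists were chosen with earlier results of these data known. Named genes are all members, Pdpn, Wt1 and Alb, of each of 7 lists the 3 genes above the floor with the largest absolute difference and the gene above the floor furthest the other way, and the 3 genes nearest to the members at either end. Notum, Msln, Elavl4, Nefl, Stmn2, Hnf4a and Dlk1 were added after their values were seen. Of the lists' genes, Xylt1, Ndst1 and Hs3st5 were not analysed here. Calculations used Python 3.11.15, numpy 2.4.6 and pandas 2.3.3, and were tested on simulated data. Upstream windows and gene order came from RefSeq for GRCm38.p6, used apart from the array values.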

Additional observations from a re-analysis of the deposited data

How the results depend on the processing

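The count of 8 members 2-fold or more toward the mesothelial side became 5 with array medians made equal and by quantile normalization, 4 with hybridisation controls made equal, 3 with reference gene medians made equal, and 4 at the 4-fold threshold. It was 7 or 8 under the other settings, and under each setting tried 0 members above the floor reached 2-fold toward the liver side. Gpc5, under the floor, differed by -1.03 to -1.71 under the other scalings except quantile normalization, where it differed by -0.78. The median difference over members, 1.71, was 0.97 by quantile normalization, 0.64 with hybridisation controls made equal and 0.60 with reference gene medians made equal. The 48 related genes 2-fold or more toward the mesothelial side became 26 of 71 with array medians made equal, 22 by quantile normalization, 12 with hybridisation controls made equal and 12 with reference gene medians made equal, against 23.9%, 20.7%, 14.6% and 14.1% of all genes. Under the last of these the median of the GPI anchor list turned to -0.010. These scalings subtract a constant from every difference, 0.64, 1.08 and 1.11 for array medians, hybridisation controls and reference genes, except quantile normalization. Equal hybridisation controls and removal of the median reference gene difference, 0.43, were added after the data were seen. Gpc4 turned sign under 3 scalings, and Gpc5, near control level, turned to 0.39 with low values set to control level. No paired analysis was possible because each group has 1 array, and none could be left out. Signal over background limits Gpc5 and the dim probe sets of Sdc1, Sdc2, Sdc3 and Sdc4.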
